A study of Callithrix jacchus and Rattus norvegicus and Loxodonta africana with 31 samples.

Results

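The heart of the common marmoset, a small New World monkey, was set against the heart of the rat, gene by gene, in deposited expression tables of the 2 species. Genes were joined by their symbol, ignoring case, where the symbol was unique in both tables and the gene was marked as autosomal in both. This gave 6474 genes of the 19681 in the marmoset table and the 20486 in the rat table, and 5117 of them were listed above 0 in all 4 heart libraries. Each species had 1 female and 1 male heart, each labelled individual 1, with no strain, age, treatment or genotype given in the labels, and the kidney and liver of the same sexes and individual numbers served as reference organs. Polyadenylated RNA was sequenced. The marmoset libraries were strand-specific and single-end with 101 cycles, and how the rat libraries were prepared is not stated in the labels used. The series was made to follow genes of the Y chromosome across mammals, so the hearts served there as one of several organs.

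Expression is given as FPKM, fragments scaled by transcript length and by the number of mapped fragments of the library. The 2 tables were normalized separately, so FPKM values of the 2 species stand side by side here only as levels within their own table. What was compared is the percentile rank: a gene's place, from 0 to 100, among all genes of its table by its mean log2(FPKM + 1) over the 2 hearts. A gene was called ranked higher in a species where its percentile was at least 25 points above that of the other species and both of its libraries ranked above both libraries of the other. No test was run between the tables, because each table has its own libraries, annotation and normalization, and these cannot be told apart from the species. Distances in rank are given as marmoset minus rat, and pairs of percentiles as marmoset against rat. With 2 animals a species, any p-value below rests only on how far the differences between organs disagreed between these 2 animals. The fit takes out the mean difference between the animals and draws each gene's spread towards that of genes at similar levels. The p-values come from a comparison of heart with the mean of kidney and liver within a table, in which a gene passed as higher or lower in heart with a Benjamini-Hochberg adjusted p under 0.05 and a change of at least 1 on the log2(FPKM + 1) scale.

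Heart muscle contracts through sarcomeres, repeating units of actin and myosin filaments that are switched on by calcium released from the sarcoplasmic reticulum. It works almost wholly on oxidative metabolism and burns mainly fatty acids, with lactate, glucose and ketone bodies as further fuels. The potassium channels that end each beat are known to differ between small rodents and large mammals.

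The label of the organ was checked against its markers. Of 18 cardiomyocyte markers, 5 were joined by the symbols in the tables and 13 once missing marmoset symbols were filled in from an Ensembl name table. None of the 13 was ranked higher in either species, and 11 of them stood at or above the 90th percentile in both hearts, with summed levels of 16289.8 and 27327 FPKM in the marmoset and 37883 and 48949 FPKM in the rat, female first. Hepatocyte markers (12 of 14 joined) summed to 9.48 FPKM in the female and 433 FPKM in the male marmoset heart, and to 36.7 and 165 FPKM in the female and male rat heart, and ALB, the albumin gene, alone stood at 1.90 and 155 against 12.5 and 97.5 FPKM. Thymus and airway markers were at or near 0, at no more than 1.04 FPKM in sum in any heart. Fibroblast markers (6 joined) summed to 1196 and 938 FPKM in the marmoset and 496 and 1033 FPKM in the rat, and endothelial markers (11 joined) to 298 and 486 FPKM in the marmoset and 368 and 312 FPKM in the rat, with none of the first and 1 of the second, MMRN1, ranked apart between the species. The heart values of the marmoset table summed to 427621 FPKM in the female and 837796 FPKM in the male, and those of the rat to 3292150 and 3551200 FPKM, with 17.8% and 22.8% of the sum in the 10 highest genes in the marmoset but 83.3% and 80.6% in the rat. A percentile rank is not moved by such a total.

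Across the 6474 genes the ranks of the 2 hearts followed each other with a Spearman rho of 0.803, against 0.905 between the female and the male marmoset and 0.972 between the female and the male rat. These are descriptions across genes, which are not independent replicates. The median distance between the species was 8.31 percentile points, that between the 2 marmosets 6.52 and that between the 2 rats 2.88. In all, 655 genes lay more than 25 points apart between the species (10.1%), against 189 between the marmosets (2.92%) and 26 between the rats (0.402%). Many more genes therefore lay that far apart between the 2 tables than between animals of one species. The tables also differ in annotation and normalization, which cannot be told apart from the species. Of the 655, 315 were called ranked higher in the marmoset (4.87% of all joined genes) and 336 in the rat (5.19%). Just inside the threshold lay EPS8 (25.05 points) and TCF3 (-25.02 points), and just outside it DDX58 (24.96 points) and S1PR3 (-24.99 points). When the ranks were taken only among genes of at least 1 FPKM on average in each heart, 562 genes were called for the marmoset and 300 for the rat, of 3687 joined. The balance between the directions thus depends on which genes are ranked. Of the 315 and 336 genes, only 99 and 140 could be ranked there, and 99 and 137 were called again. The others stood below 1 FPKM on average in the heart of at least 1 species, so most of the calls involve a low value.

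**Figure D1:**
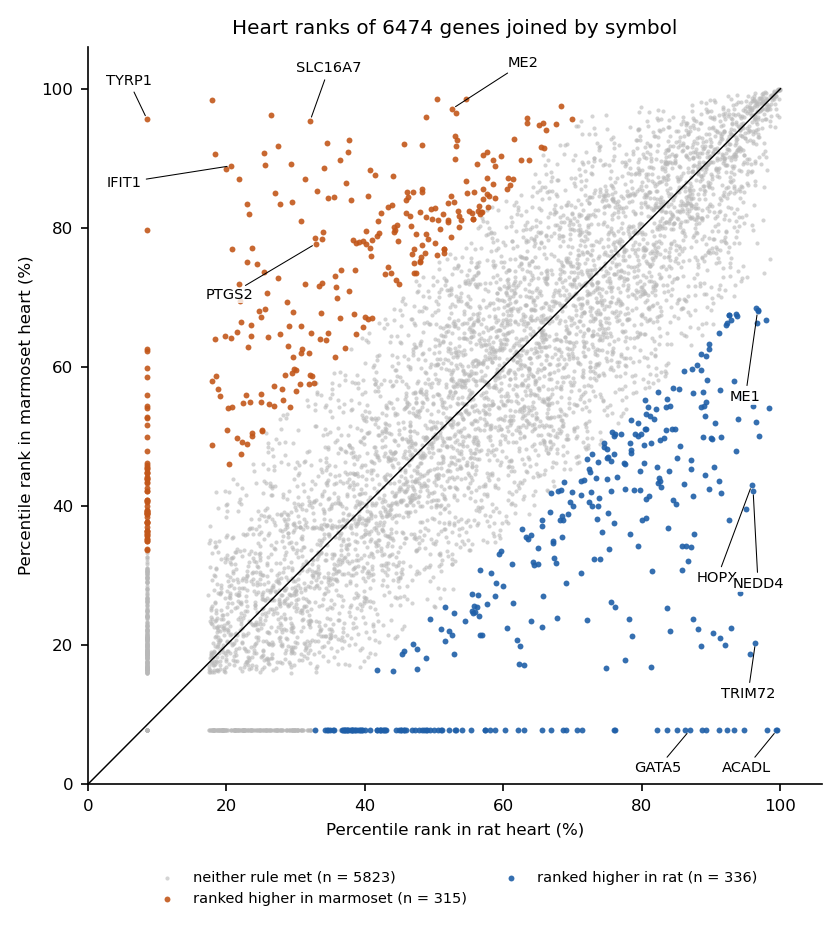
Percentile rank in marmoset heart (y axis, %) against percentile rank in rat heart (x axis, %) for 6474 joined genes, 1 point a gene, each rank taken from the mean of a female and a male library. Orange points are the 315 genes ranked higher in the marmoset and blue points the 336 ranked higher in the rat; the column and the row of points at the lower edge are genes listed at 0 in both hearts of 1 species, and the black line marks equal ranks.

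Sarcomere genes stood high in both hearts, with a median percentile of 94.9 in the marmoset and 94.8 in the rat. Of 22 joined, 11 differed by less than 5 points and 1 was called in each direction (9.09%, near the 10.1% over all joined genes), with a median difference (marmoset minus rat) of 0.708 points against -0.796 points over all joined genes. Once the name table was used, 3 of 46 were called for the marmoset and 0 for the rat (6.52%, against 10.2% over all genes joined that way). ACTC1, the cardiac alpha-actin, stood at 3075 FPKM in the female and 4372 FPKM in the male marmoset heart, against 17645 and 31649 FPKM in the female and male rat heart. ACTA1, the skeletal alpha-actin also made in heart, stood at 4108 and 5858 against 1343 and 4128 FPKM in the same order, and MYBPC3, cardiac myosin-binding protein C, at 413 and 978 against 520.1 and 495 FPKM. All of these libraries ranked at or above the 98th percentile. Within each table ACTC1 was far higher in heart than in kidney and liver: on the log2(FPKM + 1) scale it was 10.89 ± 0.21 (SE) higher in the marmoset and 12.51 ± 0.36 (SE) higher in the rat (limma, Benjamini-Hochberg adjusted p = 6.56e-05 and 1.32e-05). MYH7, the slow beta-myosin heavy chain that dominates the ventricle of large mammals, stood at 1044 FPKM in the female marmoset but was listed at 0 in the male, and at 115 and 507 FPKM in the rat. Because Cufflinks can return a 0 where its estimate failed, a gene is said here only to be listed at 0, and no ordering of MYH7 between the species is given.

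The sarcomere gene with the widest difference among those 22 was MYOM3, an M-band protein of muscle. It stood at 26.9 FPKM in the female and 32.5 FPKM in the male marmoset heart, against 0.791 and 0.488 FPKM in the female and male rat heart, at percentiles 87.6 against 41.4. Both marmoset hearts lay above both rat hearts, and within the marmoset MYOM3 was 4.73 ± 0.19 (SE) log2 units higher in heart than in kidney and liver (limma, adjusted p = 9.83e-05). TNNI2, the fast skeletal troponin I, was called for the rat, but its levels were low there (0.249 and 0.538 FPKM), and in the marmoset, where this gene was listed at 0 in heart, a further gene model with the same symbol in the name table stood at 0 and 0.328 FPKM. The sarcomere genes MYOM1, MYOM2, NEBL and TMOD1 lay within 3 points of each other between the species. Of 9 joined genes of the intercalated disc, which couples heart muscle cells, none was called, and PKP2, a desmosome protein, stood at 72.3 and 81.7 against 81.7 and 35.6 FPKM.

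For atrial markers the median of the distances taken gene by gene was 16.2 points over 7 joined by the symbols in the tables. It was 8.81 points over 12 with the name table, and not all genes went in that direction. The median percentiles themselves were 61.7 against 78.3 over the 7 and 62.9 against 59.9 over the 12, so the lists as a whole show no steady order. Of the 7, 5 ranked higher in the marmoset by any distance, and 1 was called: KCNJ3, a subunit of the potassium channel opened by acetylcholine, which ranked higher in the rat, at 3.62 FPKM in the female and 1.64 FPKM in the male marmoset heart, against 32.1 and 29.1 FPKM in the female and male rat heart. KCNJ5, the partner of KCNJ3 in that channel, stood at 49.0 and 101 against 8.73 and 13.1 FPKM, and both of its marmoset values ranked above both rat values although the distance of 16.2 points did not reach the threshold. The atrial myosin light chain MYL7, joined only through the name table, stood at 414 FPKM in the female and 3529.9 FPKM in the male marmoset heart, against 2.09 and 0.278 FPKM in the female and male rat heart, a distance of 54.2 points. MYL4, the other atrial light chain, stood at 152 and 316 against 10.9 and 5.42 FPKM (24.5 points), whereas NPPA, the atrial natriuretic peptide, ranked at 96.9 against 98.2, with 23.1 and 693 against 325 and 199.8 FPKM. BMP10, a growth factor of the atrium, was listed at 5.54 FPKM in the male marmoset and at 0 in the other 3 hearts. With the name table, the 12 joined atrial markers summed to 1227 and 5262 FPKM in the marmoset and 605 and 497 FPKM in the rat, and 1 was called in each direction. The labels do not say which chamber was sampled. In a bulk sample a smaller share of a cell type and less RNA per cell cannot be told apart.

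Of 15 joined genes that move or sense calcium, 7 differed by less than 5 points, with a median of 1.23 points. Of the 15, 1 was called (6.67%, against 10.1% over all joined genes). Once the name table was used, 3 of 25 were called for the marmoset and 0 for the rat (12.0%, against 10.2% over all genes joined that way). ATP2A2, the calcium pump of the sarcoplasmic reticulum, stood at 1563 and 1371 against 3024 and 2256 FPKM, in the order female and male marmoset, female and male rat, at percentiles 99.8 against 99.8. RYR2, the calcium release channel, stood at 430.2 and 135 against 41.1 and 22.0 FPKM, and SLC8A1, the sodium-calcium exchanger, at 172 and 132 against 16.6 and 8.61 FPKM. SLC8A1 lay 17.4 points higher in the marmoset, short of the threshold. CAMK2B, a subunit of calcium-calmodulin kinase II, was the called gene, at 7.61 and 31.0 against 0.261 and 0.220 FPKM and percentiles 79.4 against 33.9. The kinase subunits CAMK2A and, through the name table, CAMK2D lay at 69.4 against 72.1 and 94.9 against 90.8, and of these 3 subunit genes CAMK2B alone was called.

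Among 27 joined ion channel and pump genes, 2 were called for each species (14.8%, against 10.1% over all joined genes), with a median of -1.04 points. Once the name table was used, 2 of 39 were called for the marmoset and 4 for the rat (15.4%, against 10.2% over all genes joined that way). KCNJ3, given above, was among those called for the rat. KCND2, the pore of the fast transient outward current in rodent ventricle, was joined through the name table and was listed at 0 in both marmoset hearts against 2.09 and 3.76 FPKM in the rat. Its relative KCND3 stood at 0.778 and 0.348 against 2.47 and 1.79 FPKM, with both rat values above both marmoset values and a distance of -19.7 points. KCNH2, which carries the rapid delayed rectifier current of large mammals, stood at 22.9 and 73.5 against 14.6 and 11.0 FPKM and KCNQ1, which carries the slow one, at 15.0 and 32.1 against 10.6 and 20.2 FPKM, and neither was called. The pacemaker channel HCN4 stood at 1.20 and 4.26 against 0.170 and 0.474 FPKM and HCN2 at 7.26 and 13.2 against 23.4 and 55.8 FPKM, with differences of 13.5 and -19.5 points. SCN10A, a sodium channel of sensory neurons, was among those called for the marmoset, at the low levels of 4.48 and 1.01 FPKM against 0.00774 and 0.000318 FPKM.

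Genes of fatty acid use were called more often than all joined genes, and mostly for the rat. Of 20 joined genes of fatty acid use, 8 were at or above the 90th percentile in both species and 11 differed by less than 5 points. Of the same 20, 1 was called for the marmoset and 4 for the rat (5 of 20, or 25%, against 10.1% over all joined genes). Their median was -0.599 points, near the -0.796 points over all joined genes, so the list as a whole was not shifted towards the rat. Once the name table was used, 2 of 40 were called for the marmoset and 4 for the rat (15.0%, against 10.2% over all genes joined that way). ACADL, the mitochondrial long-chain acyl-CoA dehydrogenase, which opens the oxidation of long fatty acids in rodent heart, was listed at 0 in both marmoset hearts and stood at 1183 and 955 FPKM in the rat hearts. It was near 0 in every other marmoset library used here as well, at no more than 0.0348 FPKM, while the rat had 64.0 and 65.2 FPKM in kidney and 294 and 230.5 FPKM in liver. ACADM, the medium-chain enzyme, stood at 498 and 242 against 812 and 869 FPKM and ranked at 98.9 against 99.3. ACADVL, the very-long-chain enzyme, joined through the name table, stood at 467 and 853 against 243 and 249.8 FPKM. Of these 3 acyl-CoA dehydrogenases ACADL stood apart between the hearts, and it did so in kidney and liver too.

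CPT1A, the liver form of the transferase that lets fatty acids into mitochondria, stood at 2.11 and 2.12 against 13.2 and 8.77 FPKM, with both rat hearts above both marmoset hearts (-30.8 points), while the muscle form CPT1B stood at 98.1 and 192 against 256 and 247 FPKM and ranked at 97.1 against 98.2. ACSL5 and PNPLA3, a fatty acyl-CoA ligase and a lipase, were also called for the rat, by -36.6 and -29.1 points. The gene called for the marmoset was PDK4, a kinase that turns off pyruvate dehydrogenase, at 63.6 and 64.8 against 8.13 and 2.58 FPKM. Its kidney differed in the same direction by 43.7 points, and in neither species did heart pass as higher or lower than the other organs (log2 -0.36 ± 0.24 (SE) in the marmoset and -0.94 ± 0.23 (SE) in the rat, limma adjusted p = 0.261 and 0.0153). CD36, the fatty acid transporter of the heart, ranked at 99.4 against 99.1.

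Of the monocarboxylate transporters, which carry lactate and pyruvate, SLC16A7 and SLC16A3 were called for the marmoset and SLC16A1 was not called. SLC16A7, a monocarboxylate transporter with a high affinity for pyruvate, stood at 99.5 FPKM in the female and 70.1 FPKM in the male marmoset heart, against 0.143 and 0.213 FPKM in the female and male rat heart. Both marmoset libraries ranked above both rat libraries, and the percentiles were 95.4 against 32.1. In the kidney the order was the opposite, with 2.19 and 2.19 FPKM in the marmoset and 32.9 and 9.50 FPKM in the rat (-42.6 points). Within its own table SLC16A7 was higher in marmoset heart than the mean of kidney and liver, by 2.56 ± 0.21 (SE) log2 units. In rat heart it was lower than that mean, at -3.86 ± 0.40 (SE) (limma, adjusted p = 0.000548 and 0.000597). This contrast is with the mean of kidney and liver, and does not show how far heart stood from liver alone. SLC16A3, the exporter of lactate from glycolytic cells, stood at 15.6 and 64.6 against 0.217 and 0.284 FPKM, a distance of 54.4 points. SLC16A1, the widespread transporter of the same family, ranked at 94.3 against 97.4. PDK4, SLC16A7 and SLC16A3 were the 3 called genes among 29 of glucose and lactate use (10.3%, near the 10.1% over all joined genes). The median of the 29 was 0.305 points, and 17 of them lay within 5 points. ALDOA, the muscle aldolase, and SLC2A4, the insulin-responsive glucose transporter, ranked at 99.5 against 99.4 and 98.1 against 97.8.

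Malic enzymes, which make pyruvate from malate, differed by form. ME2, the mitochondrial NAD-dependent form, stood at 138 FPKM in the female and 135 FPKM in the male marmoset heart, against 1.74 and 2.01 FPKM in the female and male rat heart. ME1, the cytosolic NADP-dependent form, stood at 7.17 and 8.82 against 118 and 128 FPKM, the reverse order. Neither gene's libraries overlapped between the species, at 44.5 points for ME2 and -28.6 points for ME1. ME3, a mitochondrial NADP-dependent form, stood at 14.8 and 59.9 against 78.2 and 72.9 FPKM and ranked at 87.8 against 95.1. Within the marmoset ME2 was higher in heart by 3.33 ± 0.21 (SE) log2 units (limma, adjusted p = 0.000261), and in the rat the contrast was -0.29 ± 0.16 (SE) (limma, adjusted p = 0.181). ME1 was called for the rat also in kidney (-46.2 points) and liver (-29.4 points). ME1 and ME2 were the only 2 called of 11 joined genes of the citric acid cycle and its side reactions (18.2%, against 10.1% over all joined genes). None was called of 9 joined nuclear genes of the respiratory chain, all of which lay at or above the 90th percentile in both hearts and within 5 points of each other, nor of 12 genes of the mitochondrial ribosome, whose median was -2.44 points. Once the name table was used, the respiratory chain had 1 of 37 called for the marmoset and 0 for the rat, and the mitochondrial ribosome 0 of 52 called for the marmoset and 2 for the rat.

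**Figure D2:**
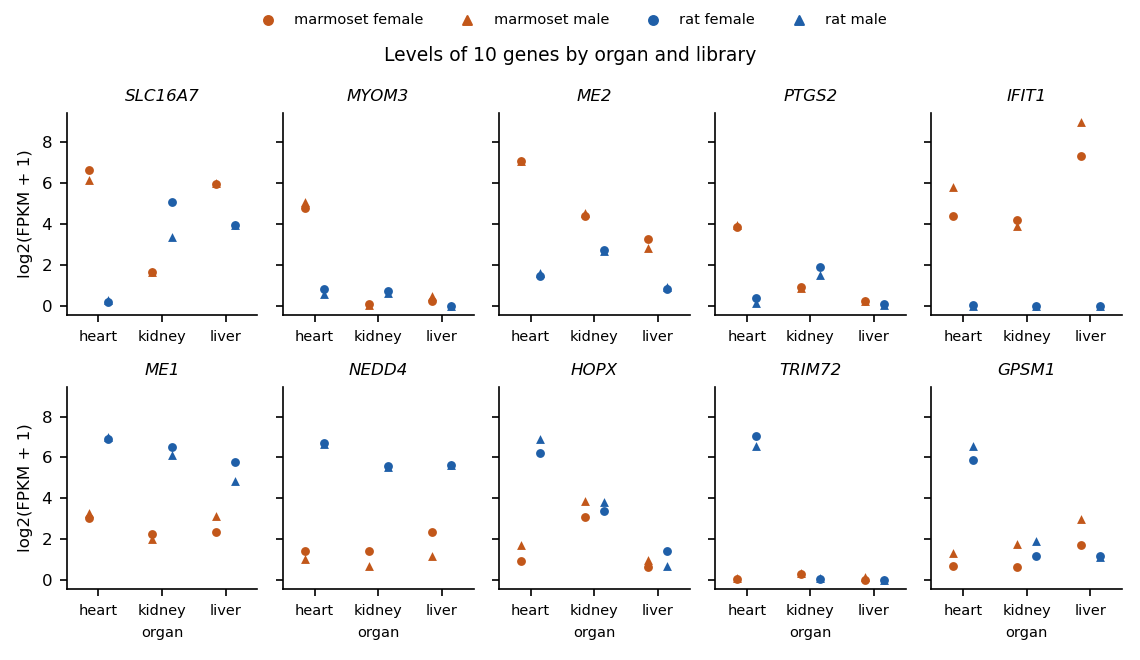
Level of 10 genes as log2(FPKM + 1) (y axis) in heart, kidney and liver (x axis) of the marmoset (orange) and the rat (blue), with circles for the female and triangles for the male library, and no averages drawn. The upper 5 genes were called for marmoset heart and the lower 5 for rat heart. SLC16A7 lies higher in heart than in kidney in the marmoset, and lowest in heart in the rat. The points of IFIT1 (marmoset above) and NEDD4 (rat above) lie apart in all 3 organs.

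Receptors and enzymes that set vascular tone differed at more genes than most lists did. Of 15 joined genes of natriuretic peptides and vasoactive hormones, 5 were called for the marmoset and 1 for the rat (6 of 15, against 10.1% over all joined genes), and the median was 17.1 points. With the 11 members added by the name table it was 7.58 points, with 5 and 2 called of 26 (26.9%, against 10.2% over all genes joined that way). The endothelin receptors EDNRA and EDNRB stood at 47.1 and 28.2 against 3.15 and 1.08 FPKM and 61.9 and 98.7 against 5.52 and 2.82 FPKM, in the order female and male marmoset, female and male rat. Both marmoset hearts exceeded both rat hearts in rank for each, by 36.9 and 31.6 points. EDNRA was also higher in heart than in kidney and liver of its own species, by 3.51 ± 0.20 (SE) log2 units in the marmoset and 1.06 ± 0.19 (SE) in the rat (limma, adjusted p = 0.000196 and 0.00494). CALCRL, the receptor chain shared by CGRP and adrenomedullin, stood at 37.8 and 39.0 against 4.89 and 1.86 FPKM. PTGS2, the inducible cyclooxygenase that makes prostaglandins, stood at 13.4 and 14.6 against 0.319 and 0.102 FPKM, and in kidney its order was the reverse, at -19.2 points. UTS2R, the urotensin receptor, was called at low levels, with 0.257 and 4.23 FPKM in the marmoset and 0 in both rat hearts.

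CORIN, the protease that activates the natriuretic peptides, was the gene called for the rat, at 1.30 and 10.5 against 20.8 and 14.0 FPKM. Marmoset liver had 12.7 and 8.18 FPKM against no more than 0.0427 FPKM in rat liver. The natriuretic peptide receptors NPR1 and NPR3 stood at 79.2 against 71.0 and 45.4 against 50.03 percentiles, and the soluble guanylate cyclase subunits GUCY1A3 and GUCY1B3 at 84.9 against 67.6 and 86.6 against 65.1, none of them called. Through the name table NOS3, the endothelial nitric oxide synthase, was called for the rat at 1.24 and 4.56 against 16.2 and 22.1 FPKM, while the endothelial markers PECAM1 and CDH5 lay -5.25 and -8.90 points apart. Some smooth muscle markers also ranked higher in the marmoset: CNN1, joined through the name table, stood at 10.0 and 14.0 against 0.310 and 0.668 FPKM and was called for the marmoset, and MYH11 at 5.03 and 17.5 against 1.52 and 2.18 FPKM. The summed level of the 8 smooth muscle and pericyte markers was 117 and 288 FPKM in the marmoset and 75.6 and 81.1 FPKM in the rat, and their part in the receptor differences was not tested.

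In the adrenergic, muscarinic and adenosine pathway and its second messengers, 3 of 30 joined genes were called for the marmoset and 1 for the rat (13.3%, against the 10.1% over all joined genes), with a median of 0.902 points. HRH2, the histamine receptor that raises contractility, stood at 9.57 and 7.71 FPKM in the marmoset and was listed at 0 and at 0.215 FPKM in the rat. PDE5A, the phosphodiesterase of cyclic GMP, stood at 12.2 and 8.18 against 0.189 and 0.121 FPKM and GNAI1, an inhibitory G protein subunit, at 11.4 and 11.4 against 0.762 and 0.810 FPKM. PDE4A, which breaks down cyclic AMP, had the reverse order, at 1.00 and 1.13 against 9.97 and 6.04 FPKM. In the rat PDE4A was higher in heart than in the other organs by 2.18 ± 0.19 (SE) log2 units, and in the marmoset it was lower, at -1.22 ± 0.20 (SE) (limma, adjusted p = 0.000373 and 0.00522). PDE1C, a phosphodiesterase regulated by calmodulin and not on this list, stood at 26.9 and 20.3 against 0.0975 and 0.0569 FPKM. GNAI2 (91.3 against 92.5), the adenylyl cyclase ADCY5 (93.2 against 84.0) and the kinase subunit PRKAR1A (95.96 against 90.4), given as percentiles, were the 3 highest joined members in both hearts.

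Of 25 joined cardiac transcription factors, none was called for the marmoset and 3 for the rat (12.0%, near the 10.1% over all joined genes). Their median was -4.23 points. HOPX, a small homeodomain protein that restrains growth of the embryonic heart, stood at 0.873 FPKM in the female and 2.22 FPKM in the male marmoset heart, against 74.4 and 119 FPKM in the female and male rat heart. Every rat value lay above the 95th percentile and every marmoset value below the 50th. Rat heart was higher than rat kidney and liver by 4.24 ± 0.32 (SE) log2 units, and in the marmoset the contrast was -0.84 ± 0.20 (SE), short of the log2 threshold (limma, adjusted p = 0.000201 and 0.0189). GATA5 was listed at 0 in both marmoset hearts and stood at 17.2 and 26.7 FPKM in the rat, and ZFPM1, a cofactor of GATA proteins, at 0.278 and 1.34 against 2.77 and 5.08 FPKM. The factors GATA4 (10.9 and 32.0 against 48.9 and 51.8 FPKM), MEF2A (89.1 and 108 against 22.5 and 17.1 FPKM), TBX5 (10.5 and 3.59 against 10.1 and 12.1 FPKM), MYOCD (12.7 and 7.12 against 9.11 and 8.45 FPKM) and ESRRG (21.3 and 14.2 against 16.3 and 13.3 FPKM) were not called. PPARGC1A, a coactivator of mitochondrial genes, stood at 59.8 and 19.1 against 6.79 and 6.69 FPKM, a distance of 17.6 points.

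Early response genes tended to rank higher in the marmoset. Of 14 joined immediate early and stress genes, 4 were called for the marmoset and 1 for the rat (35.7%, against 10.1% over all joined genes). Their median was 7.56 points. NR4A1, NR4A2 and NR4A3, a family of nuclear receptors induced rapidly by many stimuli, stood at 196 and 128 against 7.06 and 4.16 FPKM, at 41.3 and 13.5 against 1.26 and 0.836 FPKM and at 132 and 5.796 against 0.685 and 1.02 FPKM. EGR1, a zinc finger factor of the same kind of response, stood at 47.9 and 123 against 6.44 and 4.20 FPKM. In each of the 4 the lower marmoset value ranked above the higher rat value, and NR4A3 differed by far the most between the 2 marmosets. FOS, joined through the name table, stood at 28.2 and 119.7 against 4.82 and 0.861 FPKM. JUNB was listed at 0 in all 6 marmoset heart, kidney and liver libraries, against 9.12 and 27.4 FPKM in rat heart, and was the gene called for the rat. DUSP1, a phosphatase of the same response, ranked at 98.1 against 93.9. Once the name table was used, 7 of 29 members were called for the marmoset and 1 for the rat (27.6%, against 10.2% over all genes joined that way).

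Several genes induced by interferon ranked higher in the marmoset. Of 22 joined genes of interferon response and antigen presentation, 5 were called for the marmoset and none for the rat (22.7%, against 10.1% over all joined genes). Their median was 15.5 points. IFIT1, which binds viral RNA caps, had the widest difference in favour of the marmoset among genes joined by the deposited symbols and above 0 in the 4 hearts: it stood at 19.9 FPKM in the female and 55.4 FPKM in the male marmoset heart, against 0.0343 and 0.00257 FPKM in the female and male rat heart. OAS2 and OAS3, which make the activator of RNase L, stood at 14.4 and 40.1 against 0.366 and 0.0696 FPKM and 1.59 and 11.1 against 0 and 0.0152 FPKM, and the antiviral GTPases MX1 and MX2 at 11.0 and 42.2 against 0.348 and 0.478 FPKM and 4.42 and 30.02 against 2.11 and 0.625 FPKM. The male marmoset was above the female for all 5. IFIT1, OAS2, OAS3 and MX1 were called in the same direction in kidney and liver, and in the marmoset none of the 5 passed the limma test as higher in heart, and MX1 passed as lower (-2.24 ± 0.47 (SE) log2 units, limma adjusted p = 0.0120). RSAD2, OASL and IRF7, further genes of the response, differed by -6.38, 2.87 and -5.01 points. Through the name table CXCL11, a chemokine of the same response, was called for the rat, at 0.178 and 0.108 against 16.7 and 21.1 FPKM. With all 30 members that the name table gave, the list's median was 8.00 points. Of the 30, 5 were called for the marmoset and 2 for the rat (23.3%, against 10.2% over all genes joined that way).

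Of 15 joined genes of antioxidant defence and detoxification, none was called for the marmoset and 4 for the rat (26.7%, against 10.1% over all joined genes), while 6 of the 15 ranked higher in the marmoset by any distance, with a median of -3.78 points. Once the name table was used, 2 of 39 were called for the marmoset and 6 for the rat (20.5%, against 10.2% over all genes joined that way). The median was then -0.463 points. FMO1, a flavin monooxygenase, stood at 0.0859 and 0.596 against 12.7 and 14.0 FPKM, CYP4B1, a cytochrome P450, was listed at 0 in both marmoset hearts against 14.5 and 22.0 FPKM in the rat, and GSTM2, a glutathione transferase, stood at 13.5 and 4.57 against 184 and 87.4 FPKM. Glutathione transferases of this class form a family of near-identical copies, so reads may be shared between them. CYP2E1, a cytochrome P450 chiefly of liver, stood at 0 and 6.73 against 5.30 and 9.47 FPKM and is also one of the hepatocyte markers, whose summed levels were given above; their part in its value was not tested. FMO1 held nearly the same rank in the species in kidney (0.249 points) and in liver (3.56 points), where both had it at high levels, so of the 3 organs it lay apart in heart alone.

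**Figure D3:**
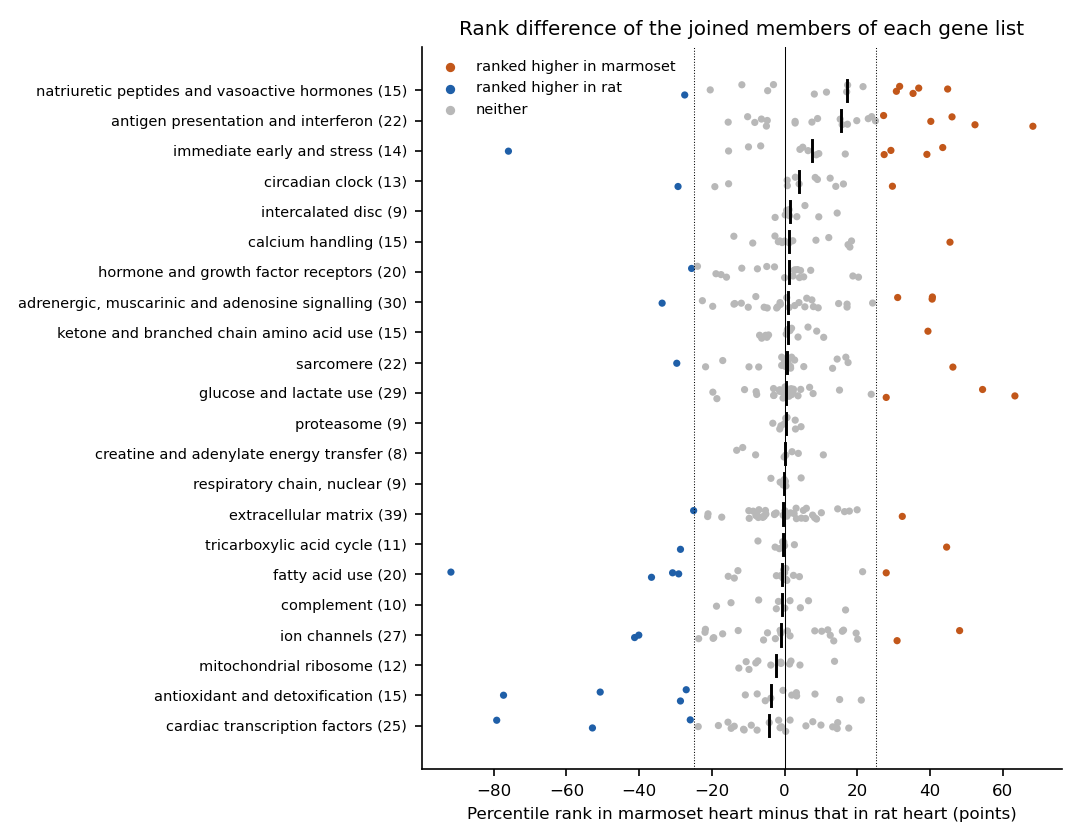
Percentile rank in marmoset heart minus that in rat heart (x axis, points) for the joined members of each gene list with at least 8 of them (y axis, number joined in brackets), 1 point a gene and a black bar at the list's median. Dotted lines mark the 25-point threshold; the medians run from -4.23 points for cardiac transcription factors to 17.1 for natriuretic peptides and vasoactive hormones, and orange and blue points are called genes.

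The remaining lists are given beside the 10.1% called over all joined genes. Of 39 joined extracellular matrix genes 1 was called for each species (5.13%): POSTN, periostin, a matrix protein of heart valves and scars, at 68.0 and 125 against 5.86 and 2.61 FPKM, and ELN, elastin, at 0.727 and 6.81 against 16.3 and 4.63 FPKM. POSTN was higher in heart than in the other organs in both species, by 5.96 ± 0.45 (SE) log2 units in the marmoset and 1.94 ± 0.33 (SE) in the rat (limma, adjusted p = 0.000474 and 0.00412). Of 13 joined clock genes 2 were called (15.4%): CRY2, a repressor of the clock, was called for the marmoset (62.1 and 90.1 against 7.17 and 2.65 FPKM) and ARNTL, its activator, for the rat (0.883 and 2.53 against 7.88 and 7.35 FPKM). Of 3 joined macrophage markers 2, CSF1R and EMR1, were called for the rat, at 1.04 and 1.21 against 6.57 and 7.75 FPKM and 0 and 0 against 1.46 and 1.83 FPKM, while CD163 lay 9.00 points apart; with the name table the list's 6 members summed to 17.0 and 12.9 FPKM in the marmoset and 15.1 and 17.5 FPKM in the rat. Of 20 joined hormone and growth factor receptors and ligands 1, GDF15, was called, for the rat, at 0.0796 and 0.122 against 0.459 and 3.10 FPKM; with the name table it was 3 of 48 called for the marmoset and 4 for the rat. None was called of 10 complement genes, 9 proteasome genes, 8 genes of creatine and adenylate energy transfer, 5 of oxygen, iron and heme, and 2 of the cytosolic ribosome. GPT2, a mitochondrial alanine aminotransferase, was the 1 called of 15 genes of ketone and branched-chain amino acid use, at 39.8 and 67.0 against 1.696 and 2.27 FPKM. Some short marker lists had larger shares: 2 of 5 nerve and Schwann cell markers, 2 of 5 skeletal muscle markers, 1 of 3 lymphatic markers and 1 of 6 of epicardium and mesothelium were called. NCAM1, a neural adhesion molecule (28.7 and 45.5 against 3.78 and 2.12 FPKM), was called for the marmoset, and PDPN, a lymphatic marker (0.325 and 0.771 against 10.9 and 12.4 FPKM), MSLN, of the mesothelium (0.162 and 1.27 against 9.83 and 2.91 FPKM), MYBPC2, of fast skeletal muscle (0 and 0.0165 against 1.01 and 0.721 FPKM), DBH, of sympathetic nerves (0 and 0 against 0.877 and 0.674 FPKM), and TNNI2 for the rat.

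The genes with the widest differences, among those joined by the deposited symbols and above 0 in all 4 hearts, came from several functions. For the marmoset they were IFIT1, ADAM11, LY75, FBLN7, PNMA1, SLC16A7, ZSCAN18, CADM1, BEST3, PDE1C, SPATA20 and HSD17B14, with distances from 68.2 to 55.6 points. Genes joined through the name table and named after their values were seen reached as far: ATP5H, a subunit of ATP synthase, lay 79.2 points apart, IGFBP2 61.8 and BMP7 58.6. The rat gene joined as ATP5H was near 0 in every rat library used, at no more than 0.0161 FPKM in heart and 0.115 FPKM in liver. ATP5H lay apart in kidney (88.3 points) and liver (67.2 points) too, so its distance is not particular to heart and holds for the joined gene models only. LY75, an endocytic receptor of dendritic cells, stood at 27.7 and 28.4 against 0.0377 and 0.0141 FPKM, and was called for the marmoset in kidney and liver as well. CADM1, a cell adhesion molecule, stood at 35.5 FPKM in the female and 32.8 FPKM in the male marmoset heart, against 0.211 and 0.0204 FPKM in the female and male rat heart. Heart against the other organs gave 0.88 ± 0.20 (SE) log2 units in the marmoset, short of the threshold, and -1.81 ± 0.17 (SE) in the rat, where it passed as lower (limma adjusted p = 0.0173 and 0.000446). FBLN7, an adhesion protein of the matrix, and BEST3, a chloride channel of muscle, stood at 23.5 and 91.2 against 0.125 and 0.0440 FPKM and 11.2 and 30.6 against 0.0520 and 0.0238 FPKM, and in the marmoset both were higher in heart than in its other organs. Of the 12 genes 6 were called for the marmoset in both kidney and liver and 5 in neither, against 1.48% and 91.3% of all joined genes. By limma 6 passed as higher in marmoset heart, against 13.9% of all genes tested in the marmoset. That test uses the marmoset heart libraries that chose the 12, so this count only describes them.

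For the rat the widest were TRIM72, HMGA1, GPSM1, ZRANB2, NCF1, ZDHHC2, GDA, NEDD4, HOPX, ADAM19, ATG10 and FMO1, from -76.0 to -50.7 points. TRIM72, which patches tears in the membrane of striated muscle, stood at 0.0358 FPKM in the female and 0.0613 FPKM in the male marmoset heart, against 133 and 91.8 FPKM in the female and male rat heart. It was close to 0 in all 6 marmoset libraries, and in the rat it was higher in heart than in kidney and liver by 6.77 ± 0.20 (SE) log2 units (limma, adjusted p = 1.51e-05). NEDD4, a ubiquitin ligase, stood at 1.69 and 1.05 against 104 and 98.6 FPKM, and it also lay far apart in kidney (-59.1 points) and liver (-43.0 points). GPSM1, a modulator of G proteins, stood at 0.625 and 1.51 against 57.7 and 94.3 FPKM and was higher in rat heart than in its other organs by 4.87 ± 0.23 (SE) log2 units (limma, adjusted p = 4.54e-05). ZDHHC2, a palmitoyltransferase, stood at 1.18 and 0.584 against 49.3 and 41.4 FPKM. NCF1, a subunit of the phagocyte NADPH oxidase, stood at 0.208 and 0.587 against 18.3 and 23.7 FPKM. NCF1 has near-identical copies in some primates, and whether such copies bear on the marmoset value was not tested. Of these 12 genes 3 were called for the rat in both other organs and 7 in neither, against 2.29% and 91.0% of all joined genes. By limma 10 passed as higher in rat heart, against 17.8% of all genes tested in the rat. That test uses the rat heart libraries that chose the 12, so this count only describes them.

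**Figure D4:**
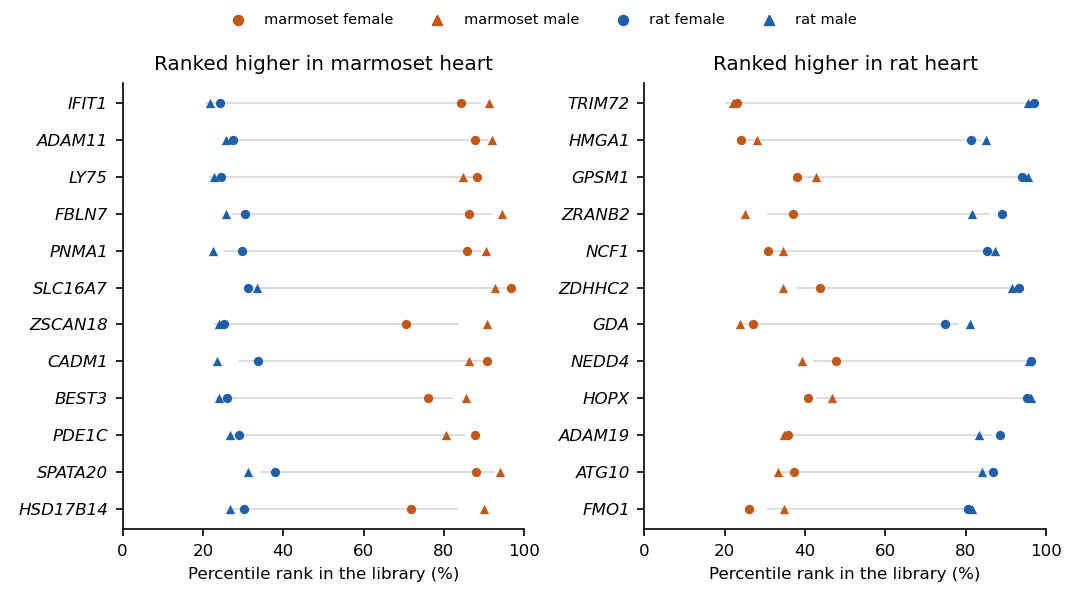
Percentile rank within each heart library (x axis, %) for the 12 genes with the widest difference in each direction (y axis), among genes joined by the deposited symbols and above 0 in all 4 hearts; circles are female and triangles male libraries, orange marmoset and blue rat, and grey lines join the ranks of the species' means. The libraries of a species lie close together for most genes, and those of IFIT1 and TRIM72 lie 68.2 and -76.0 points apart between the species (marmoset minus rat).

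Abundant genes of one heart were mostly abundant in the other. At or above the 95th percentile stood 195 joined genes in the marmoset and 177 in the rat, and 107 were there in both (54.9% of the first and 60.5% of the second). Of the 195, 5 ranked below the 50th percentile in the rat: A2M, MTIF3, SH3RF2, SLC16A7 and TYRP1, of which A2M and SH3RF2 were named after their values were seen. MTIF3, a mitochondrial translation initiation factor, stood at 82.7 and 109 against 1.10 and 1.68 FPKM, and was higher in heart than in the other organs in the marmoset (1.63 ± 0.18 (SE)) and lower in the rat (-1.08 ± 0.21 (SE), log2 units, limma adjusted p = 0.00150 and 0.00642). A2M, a plasma protease inhibitor, stood at 209 and 286 FPKM in the marmoset and SH3RF2 at 103 and 109 FPKM, each with 1 rat heart listed at 0. Of the 177, 8 ranked below the 50th in the marmoset: ACADL, DNAJC15, GPSM1, HOPX, NEDD4, SPINK8, TRIM72 and VNN1. VNN1, a pantetheinase, was named after its values were seen and stood at 85.4 and 91.8 FPKM in the rat, against 0 and 0.0640 FPKM in the marmoset. A further high gene of marmoset heart was CD52, a surface antigen of lymphocytes (315 and 205 against 1.63 and 2.82 FPKM), while the lymphocyte markers, 9 joined through the name table, had none called for the marmoset and 2 for the rat, with a median of -17.8 points and sums of 3.82 and 1.46 FPKM in the marmoset and 5.49 and 12.0 FPKM in the rat. Another was RRAGD, which signals amino acid supply (77.4 and 77.7 against 5.91 and 3.58 FPKM). PXMP2, a peroxisomal channel (1.82 and 3.49 against 120.2 and 143 FPKM), APRT, which salvages adenine (0.635 and 8.61 against 146 and 88.2 FPKM), and RETSAT, a retinol saturase (3.21 and 14.6 against 132 and 107 FPKM), were among those of rat heart.

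Among the joined genes, 558 were listed at 0 in both marmoset hearts and 589 in both rat hearts. They share the lowest percentile of their table, 7.75 in the marmoset and 8.54 in the rat. Of the 336 genes called for the rat 91 were listed at 0 in both marmoset hearts, and of the 315 called for the marmoset 63 were at 0 in both rat hearts. Highest in marmoset heart among the latter was TYRP1, an enzyme of melanin synthesis, at 50.03 and 156 FPKM, followed by IDO1, which breaks down tryptophan, at 16.1 and 15.6 FPKM; both were higher in heart than in marmoset kidney and liver, by 6.41 ± 0.37 (SE) and 2.66 ± 0.19 (SE) log2 units (limma, adjusted p = 0.000208 and 0.000410). NEK10, ATP8A2 and TEX22 followed, at 6.15 and 5.15 FPKM, 6.52 and 5.00 FPKM and 0.557 and 14.4 FPKM. Highest in rat heart among genes listed at 0 in marmoset heart were ACADL, SPINK8, DNAJC15, NFYC and DYNLL2. SPINK8, a serine protease inhibitor, stood at 811 and 811 FPKM in rat heart, at no more than 5.14 FPKM in its kidney and 0.491 FPKM in its liver, and at 0 in all 6 marmoset libraries. DNAJC15, a chaperone of the inner mitochondrial membrane, stood at 190.1 and 306 FPKM and was likewise at 0 in all 6.

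A symbol can stand for 1 of several gene models of the marmoset. For 58 joined genes the name table gave the same symbol to a further marmoset gene model without a symbol in the deposited table. None of these was among the genes called for the marmoset and 18 were among those called for the rat. NFYC, a subunit of a general transcription factor, was at 0 in both marmoset hearts (56.3 and 81.6 FPKM in the rat), but its further model stood at 18.6 and 35.7 FPKM. ZRANB2, a splicing factor, was at 0.549 and 0.122 FPKM with 51.9 and 19.0 FPKM in the further model, and SLFN5 and TNNI2 belong to the same 18. For these the distance holds for the named model only. Leaving out every symbol with a further model and adding the genes the name table could name gave 11094 joined genes, of which 550 were called for the marmoset and 584 for the rat, or 4.96% and 5.26%.

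How far the heart differences were shared by other organs was asked of kidney and liver, whose libraries the heart rule did not use. Applied there, the same rule called 5.14% of the joined genes for the marmoset and 5.96% for the rat in kidney, and 5.05% and 5.34% in liver. Of the 315 genes called for marmoset heart 96 were also called in kidney (30.5%), 83 in liver (26.3%), 53 in both (16.8%) and 189 in neither. Of the 336 called for rat heart 131 were also called in kidney (39.0%), 114 in liver (33.9%), 85 in both (25.3%) and 176 in neither. Over all joined genes 1.48% were called for the marmoset in both kidney and liver and 2.29% for the rat. The heart, kidney and liver of a species share annotation, symbols, normalization and, by the labels, animals, so their sharing is a description of these tables. Median distances went from 32.7 points in heart to 14.8 in kidney and 12.3 in liver for the marmoset genes, and ran from -33.5 through -19.0 to -16.4 points for the rat genes, against -0.80, -1.04 and -1.22 points over all joined genes.

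**Figure D5:**
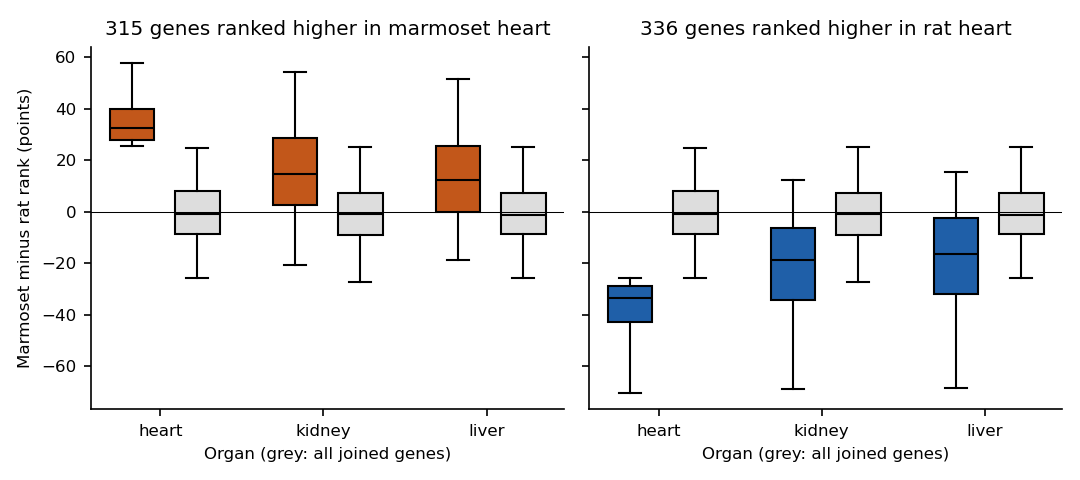
Marmoset minus rat percentile rank (y axis, points) in heart, kidney and liver (x axis) for the 315 genes called for marmoset heart (left, orange) and the 336 called for rat heart (right, blue), each beside all 6474 joined genes (grey); boxes span the quartiles with the median as a line and whiskers run from the 5th to the 95th percentile of genes. The heart boxes were set by the rule, while in kidney and liver, which it did not use, the medians were 14.8 and 12.3 points for the marmoset genes and -19.0 and -16.4 points for the rat genes.

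Within each table, heart was also compared with the mean of kidney and liver. In the marmoset 1940 of 13967 tested genes passed as higher in heart (13.9%) and 3163 as lower (22.6%), by limma with an adjusted p under 0.05 and a log2 change of at least 1. In the rat 2343 of 13128 passed as higher (17.8%) and 2642 as lower (20.1%). These fits held the animal as a block, and without it 2975 genes passed in the marmoset and 4502 in the rat, against 5103 and 4985 with it. Of the 315 genes called for marmoset heart 298 were tested in the marmoset, and 124 were higher and 36 lower in heart. In the rat 173 of them were tested, and 9 were higher and 77 lower. Of the 336 called for rat heart 296 were tested in the rat, with 110 higher and 46 lower, and 214 in the marmoset, with 8 higher and 93 lower. These contrasts use the heart libraries that chose the genes, so the counts describe the called genes and support nothing further.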

How the data were processed

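The deposited tables give 1 FPKM value per gene and library, which the authors normalized within each species' table. TopHat 1.4.0 and Cufflinks 2.0.0 are named per the submitters' processing notes; neither the labels nor the files state the genome builds, annotation or read depth, and no counting error could be set. Values of marmoset and rat heart, kidney and liver were used, and 18 other columns of per-sample values with no matching sample were not (10 hold a value above 0).

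Percentile ranks were taken over all genes of a table from the mean log2(FPKM + 1) of its female and male heart, and joined by unique symbol in upper case (Python 3.11.15, pandas 2.3.3, scipy 1.17.1). Missing marmoset symbols (6189 filled) were taken from an Ensembl name table as an alternative, and genes joined only that way are said to be so. Within a table, heart was tested against the mean of kidney and liver with limma 3.58.1 in R 4.3.3 on log2(FPKM + 1), for genes of at least 1 FPKM in 2 or more of the 6 libraries, with a mean-variance trend and the animal as a block, and p-values adjusted over all genes tested by the Benjamini-Hochberg method. The labels give the organs of a sex the same individual, and the deviations of an animal's organs from the organ means correlated at 0.721, 0.614 and 0.617 in the marmoset and 0.483, 0.443 and 0.516 in the rat. The scripts were tested on simulated data first.

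The genes, 25 gene lists and 17 cell type marker lists were chosen with earlier results of these data known. Named genes were the 12 widest differences in each direction above 0 in all 4 hearts, the 10 widest at or above the 95th percentile of 1 species, the 5 highest among genes at 0 in the other species, up to 6 called and the 3 highest members of each list, and 14 preset cardiac genes where joined (MYH6, TNNI1, PLN, SLN and KCNE1 were not). Other list members given beside them, and all genes joined only through the name table other than the preset ones, were chosen after their values were seen. A few members of the lists are not reported here. Alternatives were other sets of genes to rank, pseudocounts, thresholds, names, single sexes, left-out libraries, and fits without the block, filter or trend.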

Additional observations from a re-analysis of the deposited data

Results flagged for a closer look

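For 7 genes, among the 207 named, heart stood on opposite sides of the other organs in the 2 species, on the log2(FPKM + 1) scale. Every animal of one species had more in heart than in the mean of its kidney and liver, and every animal of the other had less. The difference between the species was not tested for any of them. Many named genes were chosen by their heart ranks, from the heart libraries used here, so the 7 are only described. The share of all joined genes with this pattern is not given. Heart was higher in the marmoset and lower in the rat for SLC16A7, a pyruvate and lactate transporter, at a mean of 2.56 in the marmoset and -3.86 in the rat. The same held for MTIF3, a mitochondrial translation factor, at 1.63 and -1.08, and for CADM1, a cell adhesion molecule, at 0.88 and -1.81. For SLC16A7 the marmoset mean does not show how far heart stood from liver alone. Heart was lower in the marmoset and higher in the rat for ZDHHC2, a palmitoyltransferase, at -2.89 and 2.79, for NCF1, of the phagocyte oxidase, at -1.73 and 3.10, and for PDE4A, a cyclic AMP phosphodiesterase, at -1.22 and 2.18. TNNI2, the fast troponin I, stood at -4.76 and 0.41. Its levels in rat heart, given above, were below 1 FPKM, so its order in the rat rests on low values. In the marmoset TNNI2 was listed at 0 in both hearts, so all of the -4.76 comes from its levels in kidney and liver. A further marmoset gene model that shares its symbol was at 0 and 0.328 FPKM in the female and male heart.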

How the results depend on the processing

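The counts of 315 and 336 genes ranked higher in marmoset and rat heart, and the rho of 0.803, moved with the genes ranked and the threshold. Among genes of at least 1 FPKM the counts were 562 and 300 and rho was 0.636, with the name table they were 550 and 584, among genes above 0 in all 4 hearts the rat count was 204, and at 40 points they were 81 and 113. The share of called genes also called for the same species in kidney and liver, 21.2% of 651, was 17.9% among genes above 0 in all 4 hearts and 26.8% at 40 points. Leaving out 1 heart library at a time gave 309 to 400 genes for the marmoset, 351 to 416 for the rat and a rho of 0.773 to 0.803. With the animal as a replicate block limma passed 5103 marmoset and 4985 rat genes, without the replicate block 2975 and 4502, and with 1 library left out 3653 to 5053 and 4103 to 4852. Of the values of 207 named genes under the alternatives, 2047 stayed within the spread between the animals and 324 moved beyond it. The 2047 include 207, 203 and 176 values from all chromosomes, the name table and genes above 0 in all 4 hearts. Those settings change which genes are joined but not a gene's rank, so they could move none. In all, 0 genes turned their direction after having been called, but called genes were chosen to lie at least 25 points apart, so this shows little. Causes were not tested. Depth is unknown, so the precision of low FPKM values could not be judged.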

Other observations

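Filling missing marmoset symbols from the name table added genes of heart metabolism that the deposited symbols leave out, named here after their values were seen. UCP3, an uncoupling protein of muscle mitochondria, stood at 39.6 FPKM in the female and 270.5 FPKM in the male marmoset heart, against 5.26 and 1.56 FPKM in the female and male rat heart, and ranked 37.0 points higher in the marmoset. CIDEA, a lipid droplet protein of brown fat, stood at 0.249 FPKM in the female and 7.49 FPKM in the male marmoset heart, against 66.9 and 59.3 FPKM in the female and male rat heart, -45.9 points. TFAM, which packs and transcribes mitochondrial DNA, stood at 8.43 FPKM in the female and 3.72 FPKM in the male marmoset heart, against 26.7 and 45.8 FPKM in the female and male rat heart, -28.6 points. The libraries of the species did not overlap in rank for any of the 3, and no test was run.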
